A study of Mus musculus with 6 samples.

Results

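Among 9 sialic acid and glycosylation enzymes, the transcripts of Nans and C1galt1 were lower in Fgfr1 FCPG/FCPG tailbuds than in wild type, by 27.9% and 25.7%. Both passed the threshold in the main fit (adjusted p = 0.037 and 0.0467, edgeR). With a term for embryo sex neither passed (adjusted p = 0.0822 and 0.103, edgeR). With 1 library left out at a time, Nans passed in 1 of 6 fits and C1galt1 in 0 of 6. Nans makes the sialic acid skeleton and C1galt1 the core galactose linkage of mucin-type sugar chains. Of the other 7 genes, Gne, Slc35a1, B4galt1 and Galt also stood below wild type in every mutant library without passing the threshold, Casd1 and Galnt12 had mean levels above wild type, and Alg2 differed by less than the spread between libraries. The 9 genes were chosen by function and by place, out of 56953 features with counts, and with earlier results of the same data known. They cover sialic acid synthesis (Gne, Nans), transport (Slc35a1) and acetylation (Casd1), and the glycan enzymes C1galt1, B4galt1, Alg2, Galt and Galnt12. All lie on stretches of chromosomes 4 and 6 where row names match the reads. Chromosome 4 carries 7 of them and chromosome 6 the remaining 2, Casd1 and C1galt1.

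RNA was sequenced from tailbud tissue of mouse embryos at embryonic day 9.5, with 3 libraries of Fgfr1 FCPG/FCPG genotype and 3 of wild-type genotype. The labels name neuromesodermal progenitors, somitic and intermediate mesoderm as the cells. FCPG is a set of point mutations in the endogenous receptor gene that remove the binding residues of signaling effectors, so every cell of the mutant carries the altered receptor. The question put to these libraries is which transcripts of developing mesoderm depend on canonical FGF signaling. The labels do not say how many embryos went into a library or whether litters were shared, so p-values measure only the spread between these libraries, which may be technical in part.

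Sialic acids are acidic sugars that end many glycan chains on the cell surface. They are built in the cytosol, activated in the nucleus with a cytidine nucleotide, carried into the Golgi and transferred to glycoproteins and glycolipids. In the Golgi they may also be acetylated. The chains that they cap are assembled by other enzymes: N-linked chains begin on the lipid dolichol in the endoplasmic reticulum, mucin-type O-linked chains begin with N-acetylgalactosamine in the Golgi, and galactose on either kind of chain is the usual acceptor of sialic acid. Mouse embryos that lack Gne or C1galt1 die before birth.

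Whether a name fits its reads was judged from ubiquitously expressed genes such as ribosomal, proteasomal and respiratory chain genes. The stretches lay on chromosomes 4, 6 and 15, with 24, 14 and 6 of these genes. Inside the stretches, all 44 of them averaged at least 10 CPM (a CPM is a read count divided by library depth), and their median was 354 CPM. Elsewhere 275 of 879 reached it, around a median of 0.673 CPM. The contrast follows from how the stretches were found. The nearest such genes were detected on both sides of each of the 9 genes, for example Dnaja1 at 1462 CPM and Bag1 at 483 CPM beside B4galt1, and Vps50 at 159.9 CPM and Sem1 at 492 CPM on either side of Casd1. All 9 genes lay inside the stretches, and all 9 still did with a detection minimum of 20 CPM. Names were judged over stretches and not gene by gene, so a single name may still be off. Library totals were 16984568 to 26568664 counts in the mutant and 18913178 to 27316475 counts in wild type. The 9 genes had from 201 counts (Galnt12) to 12017 counts (Casd1) in a library. Mitochondrially encoded messenger RNAs took 5.82% ± 0.473 of the counts in the mutant and 12% ± 1.67 in wild type (SD, n = 3 each). The names of these mitochondrially encoded genes were not judged. Y-linked genes were detected in 2 mutant libraries and 1 wild-type library. They lie outside the stretches, so the term for embryo sex used below rests on names that were not judged. Of the markers listed for the tissue, such as T and Tbx6, 0 of 11 lay inside the stretches, so the tailbud label could not be checked.

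All 9 genes passed the filter on low counts. Of the 9, 2 were called lower and 0 higher at an adjusted p below 0.05 (edgeR quasi-likelihood test, Benjamini-Hochberg over 14550 features), where 3.67% of all features were called lower and 4.25% higher. Among the 540 nuclear features of the stretches, 4.07% were called lower and 9.07% higher. The median log2 fold change, mutant over wild type, was -0.37 over the 9 genes, -0.01 over all features and 0.09 over the nuclear features of the stretches. In 6 of the 9 genes every mutant library lay below every wild-type library, a separation that 16.1% of all features showed. The opposite separation was found in 0 of the 9 genes and in 15.8% of all features. At an unadjusted p below 0.05, 6 were lower and 1 was higher, beside 12.5% and 13.1% of all features. These counts describe genes picked with earlier results of the same data known. In tissue samples, fewer cells of a type and less RNA per cell cannot be told apart.

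**Figure D1:**
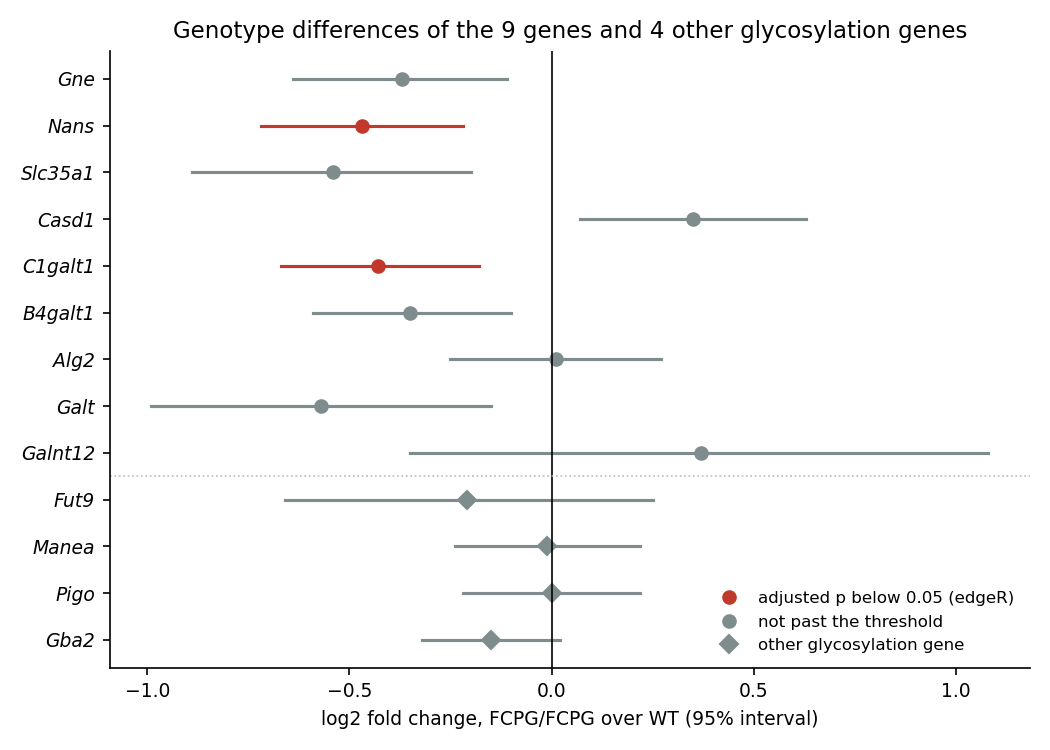
Log2 fold change (FCPG/FCPG over WT) with its 95% interval for the 9 genes (circles) and 4 other glycosylation genes (diamonds), from the edgeR fit. Nans at -0.47 and C1galt1 at -0.43, in red, passed the threshold, and the interval of Alg2 runs from -0.25 to 0.27.

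The 250 bases before the RefSeq start are shown for C1galt1, as a gene that was called lower, for Slc35a1, with the largest difference among the sialic acid genes, and for Casd1, whose mean difference had the opposite sign. Windows were given for 6 of the 9 genes (RefSeq, GRCm38.p6), with 9 starts in all. Capitals mark the GC box GGGCGG and the ETS core CCGGAA, searched on both strands with no overlaps found between them. ETS factors are known effectors of FGF signaling, and GC boxes are bound by Sp factors.
C1galt1, chr6:7844974-7845223, plus strand: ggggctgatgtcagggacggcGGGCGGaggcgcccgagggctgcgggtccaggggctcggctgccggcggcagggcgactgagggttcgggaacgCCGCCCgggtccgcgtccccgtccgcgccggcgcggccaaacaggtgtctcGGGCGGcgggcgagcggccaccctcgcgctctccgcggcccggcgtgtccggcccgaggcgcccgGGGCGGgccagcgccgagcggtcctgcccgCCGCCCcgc
Slc35a1, chr4:34687439-34687688, minus strand: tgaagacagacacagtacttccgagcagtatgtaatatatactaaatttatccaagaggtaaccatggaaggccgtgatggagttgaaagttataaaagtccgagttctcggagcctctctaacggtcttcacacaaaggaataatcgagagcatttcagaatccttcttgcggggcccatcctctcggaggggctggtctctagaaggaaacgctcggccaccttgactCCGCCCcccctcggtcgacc
Casd1, chr6:4600661-4600910, plus strand: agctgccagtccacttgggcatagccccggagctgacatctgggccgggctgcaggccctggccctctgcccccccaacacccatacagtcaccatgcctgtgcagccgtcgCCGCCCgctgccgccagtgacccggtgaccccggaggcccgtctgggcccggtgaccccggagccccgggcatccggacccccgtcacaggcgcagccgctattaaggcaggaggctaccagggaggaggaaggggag
The C1galt1 window held 5 GC boxes, and those of Slc35a1 and Casd1 held 1 each. Over the 9 starts, 6 windows of 5 genes had a GC box, which 32.7% of 32851 mouse windows hold. The ETS core was in 1 of the 9 windows, at the second start of Galt, and in 12% of all windows. These matches are descriptions of letters and not of bound sites.

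Gne encodes the enzyme with epimerase and kinase activity that commits UDP-N-acetylglucosamine to sialic acid and sets the rate of the pathway. It stood at 75.8, 64.2 and 71.5 CPM in the mutant libraries, in the order of replicates 1 to 3, and at 81.8, 88.9 and 104 CPM in the wild-type libraries. The groups did not overlap, though mutant replicate 1 and wild-type replicate 1 lay close together. Its log2 fold change was -0.37 ± 0.12 (SE) and did not pass the threshold (adjusted p = 0.0856, edgeR).

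Nans, the synthase of sialic acid phosphate and the enzyme that follows in the same route, had 251, 205 and 250.2 CPM in the mutant libraries and 303, 314 and 362.5 CPM in the wild-type libraries. All mutant values were below all wild-type values. The means were 235.5 ± 26.3 CPM in the mutant and 327 ± 31.5 CPM in wild type (SD, n = 3 each). The log2 fold change of -0.47 ± 0.11 (SE) passed the threshold (adjusted p = 0.037, edgeR). The call was lost with a term for embryo sex (log2 fold change -0.42, adjusted p = 0.0822, edgeR) and whenever a single library other than mutant replicate 3 was left out. Over the 6 such fits adjusted p ran from 0.0437 to 0.137 and the log2 fold change from -0.51 to -0.37.

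Slc35a1 carries CMP-sialic acid into the Golgi. Its levels in the mutant libraries were nearly equal, at 157, 151 and 151 CPM, while those in the wild-type libraries spread over 177, 212 and 280.1 CPM. The SD was 3.53 CPM around a mean of 153 CPM in the mutant and 52.4 CPM around a mean of 223 CPM in wild type (n = 3 each). The groups did not overlap, and wild-type replicate 1 was the nearest to the mutants. At -0.54 ± 0.15 (SE), its log2 fold change missed the threshold (adjusted p = 0.0656, edgeR). Without wild-type replicate 1 it was -0.68 and passed (adjusted p = 0.0287, edgeR), and without wild-type replicate 3, the highest library, it was -0.34 (adjusted p = 0.154, edgeR).

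Casd1, the Golgi enzyme that acetylates sialic acid, had 499.5, 469.9 and 364 CPM in the mutant libraries and 378.5, 338 and 331 CPM in the wild-type libraries. Mutant replicate 3 fell within the range of wild type, so the groups overlapped. The log2 fold change of 0.35 ± 0.12 (SE) did not pass (adjusted p = 0.119, edgeR). Without mutant replicate 3 it was 0.49 and passed (adjusted p = 0.0219, edgeR). The 3 genes that make and carry sialic acid and the gene that modifies it thus had estimates of opposite sign, with 95% intervals of -0.64 to -0.11 for Gne, -0.72 to -0.22 for Nans, -0.89 to -0.2 for Slc35a1 and 0.07 to 0.63 for Casd1, each not adjusted for the number of features.

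**Figure D2:**
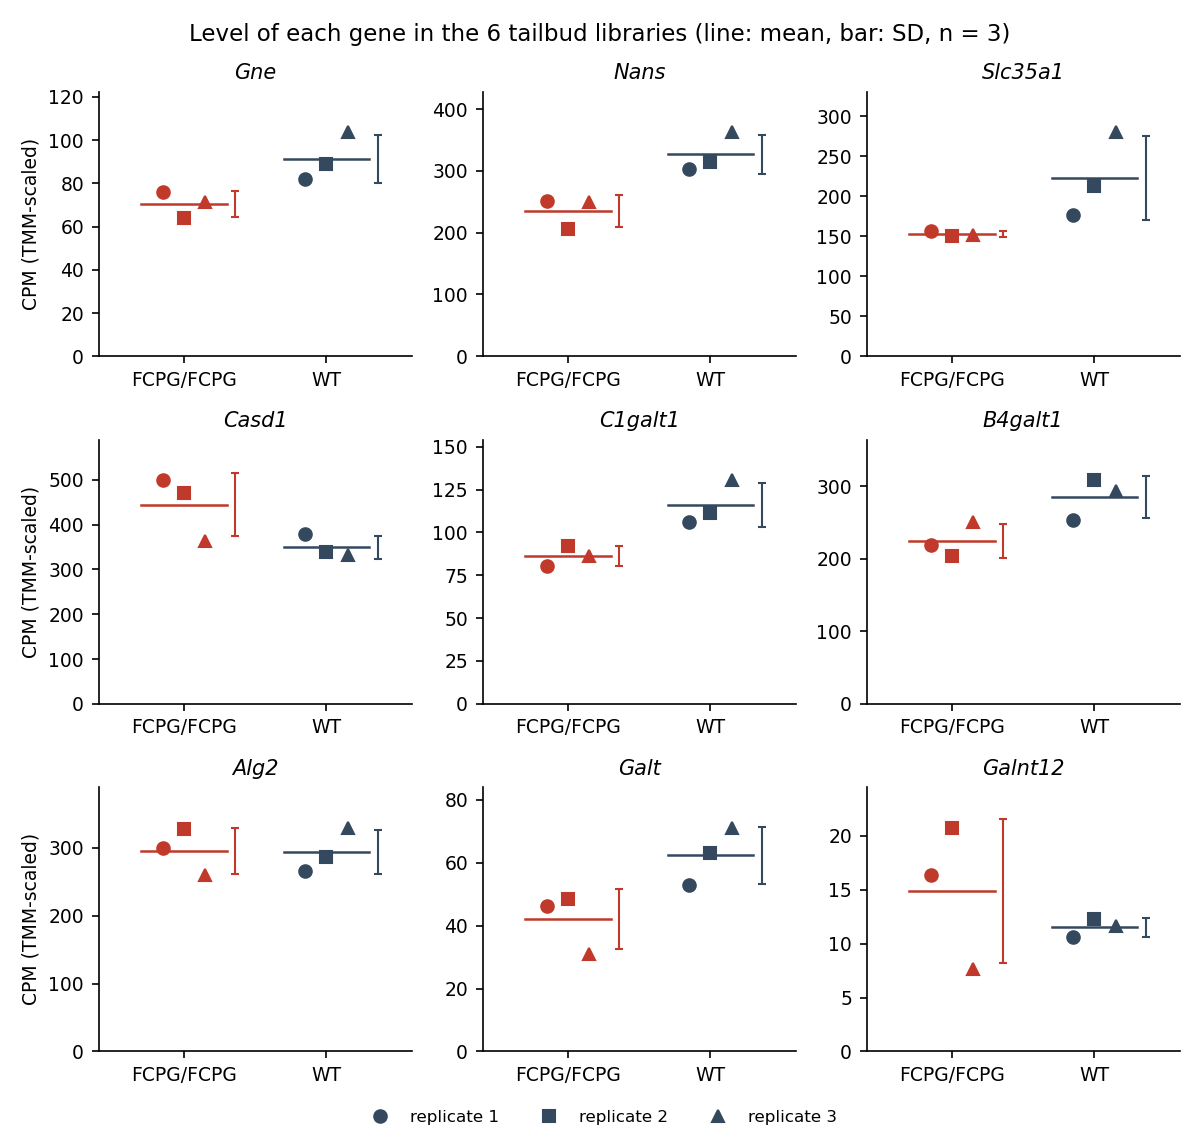
CPM (TMM-scaled) of the 9 genes in each library, FCPG/FCPG left and WT right, with replicates 1 to 3 as circle, square and triangle, a line at the mean and a bar of 1 SD (n = 3 each). Mutant and wild-type libraries separate for Gne, Nans, Slc35a1, C1galt1, B4galt1 and Galt and overlap for Casd1, Alg2 and Galnt12.

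C1galt1, the galactosyltransferase that turns the first sugar of mucin-type chains into core structure, had 80.4, 91.95 and 86.4 CPM in the mutant libraries and 106, 111 and 131 CPM in the wild-type libraries. The groups were separated, and the means were 86.2 ± 5.78 CPM in the mutant and 116 ± 12.9 CPM in wild type (SD, n = 3 each). The log2 fold change of -0.43 ± 0.11 (SE) passed the threshold narrowly (adjusted p = 0.0467, edgeR). The call ended whichever of the 6 libraries was left out, with log2 fold changes of -0.48 to -0.33 and adjusted p of 0.0559 to 0.155 (edgeR). It also ended with a term for embryo sex, at a log2 fold change of -0.42 (adjusted p = 0.103, edgeR).

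Galnt12, one of the family of transferases that place the first sugar of those same chains, was the least abundant of the 9 genes. Mutant replicates 1 to 3 had 16.3, 20.8 and 7.65 CPM, and wild-type replicates 10.6, 12.3 and 11.6 CPM. The mutant libraries lay on either side of the narrow wild-type range, with an SD of 6.67 CPM in the mutant and 0.859 CPM in wild type. The log2 fold change was 0.37 ± 0.31 (SE, adjusted p = 0.505, edgeR), with a 95% interval of -0.35 to 1.08. It was 0.70 and passed without mutant replicate 3 (adjusted p = 0.0318, edgeR), and 0.07 without mutant replicate 2 (adjusted p = 0.916, edgeR).

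B4galt1 adds galactose to N-acetylglucosamine on N-linked and O-linked chains. It had 218, 204 and 250.2 CPM in the mutant libraries and 253, 309 and 293 CPM in the wild-type libraries. The groups were separated only by the small gap between mutant replicate 3 and wild-type replicate 1. With -0.35 ± 0.11 (SE), its log2 fold change did not pass (adjusted p = 0.0891, edgeR).

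Galt, the uridylyltransferase that feeds galactose into the UDP-sugar pool, had 46.35, 48.6 and 31.1 CPM in the mutant libraries and 52.95, 63.01 and 71.2 CPM in the wild-type libraries. All mutant values were again below all wild-type values. Its log2 fold change of -0.57 ± 0.18 (SE) was the largest of the 9 in size, with the second largest SE, and missed the threshold (adjusted p = 0.0929, edgeR). Without mutant replicate 3 it was -0.38 (adjusted p = 0.127, edgeR).

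Alg2, a mannosyltransferase of the dolichol-linked precursor of N-glycans, stood at 295.6 ± 34 CPM in the mutant and 294 ± 32.8 CPM in wild type (SD, n = 3 each). Its 6 values were intermixed, from 259.7 to 327 CPM in the mutant and from 265 to 329.9 CPM in wild type. The log2 fold change was 0.01 ± 0.11 (SE, adjusted p = 0.976, edgeR), and its interval excludes differences beyond -0.25 and 0.27 on the log2 scale.

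In the authors' deposited table, from DESeq2 per the submitters' processing notes, 4 of the 9 genes had an adjusted p below 0.05, all lower in the mutant. The share of all features called in that table was not counted. A DESeq2 Wald test on the counts called 4 of the 9 genes lower. Over all features it called 767 lower and 941 higher, more than the edgeR fit did. The authors' deposited table gives log2 fold changes of -0.46 for Nans (adjusted p = 0.00719) and -0.42 for C1galt1 (adjusted p = 0.0141). For Slc35a1 the authors' deposited table gives -0.54 (adjusted p = 0.0146), and for Galt -0.56 (adjusted p = 0.0296). Sizes of the fold changes in the authors' deposited table and in the edgeR fit thus lie within 0.01 for these 4 genes, while the edgeR fit did not call Slc35a1 or Galt. Within edgeR, both passed without a low-count filter (adjusted p = 0.000108 for Slc35a1 and 0.000978 for Galt). Without that filter 1145 features were called lower and 1352 higher.

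Of 252 further genes of sialic acid, N-glycan, O-glycan, nucleotide sugar, GPI anchor, glycosaminoglycan and glycolipid metabolism, 4 lay inside the stretches, and 0 of the 4 passed the test in either direction. None of the 20 listed sialyltransferases lay there, nor any of the 37 glycosaminoglycan enzymes. Of 35 genes of sialic acid synthesis, transfer, acetylation and release, the 4 described above were the ones that could be read. Gba2, a glucosylceramidase outside the lysosome, had 159, 167.5 and 164 CPM in the mutant libraries and 174, 189 and 182 CPM in the wild-type libraries. Its groups did not overlap, and the difference was -0.15 ± 0.07 on the log2 scale (SE, adjusted p = 0.243, edgeR). Fut9, a fucosyltransferase known in the mouse for the Lewis X antigen of neural and germ cells, had means of 9.99 ± 1.76 CPM in the mutant and 11.6 ± 2.39 CPM in wild type. Manea, an endomannosidase of the Golgi, had 188.5 ± 20.1 and 190.4 ± 12.7 CPM in mutant and wild type, and Pigo, an enzyme of GPI anchor assembly, 142 ± 16 and 142 ± 3.48 CPM (SD, n = 3 each). The log2 fold changes of Fut9, Manea and Pigo were -0.21, -0.01 and 0 (adjusted p = 0.555, 0.945 and 0.993, edgeR).

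Divided by exon length, in CPM per kilobase of merged GENCODE M21 exons, the levels of the 9 genes formed a high and a low set. In the mutant, Casd1 stood at 110 and Alg2 at 85.7 CPM per kilobase, followed by Slc35a1 at 66.7, B4galt1 at 52.9 and Nans at 51.4. In wild type, Slc35a1 stood at 97.3, Casd1 at 86.5, Alg2 at 85.2, Nans at 71.3 and B4galt1 at 67.3 CPM per kilobase. The low set held Galt at 17 and 25.3, C1galt1 at 14.2 and 19, Gne at 11.1 and 14.4 and Galnt12 at 6.52 and 5.04 CPM per kilobase in mutant and wild type. Over all libraries the lowest value of the high set was 44.8, in Nans, and the highest value of the low set was 28.8, in Galt. Within the mutant, Casd1 (90.2 to 124) overlapped Alg2 (75.3 to 94.9), and B4galt1 (48.2 to 59.1) overlapped Nans (44.8 to 54.8). Slc35a1, at 65.7 to 68.5, stood apart from both pairs. Within wild type, Slc35a1 (77.2 to 122) overlapped Casd1 (82 to 93.8) and Alg2 (76.9 to 95.6), and Nans (66.2 to 79.1) overlapped Alg2 and B4galt1 (59.7 to 72.9). In the low set Galt overlapped C1galt1 in both genotypes, and Gne and Galnt12 each lay below the next gene in every library of a genotype. The exon lengths come from an annotation of an older build than that named by the submitters. Exons of Nans share bases with Trim14 on the opposite strand, which stood at 1.21 CPM. The kit marks strand, but the strand setting of the counting is not given in the sources used here, so reads from such shared bases may be lost or misassigned.

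Wild-type replicate 1 was the lowest of its group in 8 of the 9 genes, all but Casd1, in which it was the highest. It was the lowest wild-type library in 34.5% of all tested features, and in 50% of the 2341 features whose mutant values lay below all wild-type values. On the first principal component of all features, which took 50.5% of the variance, the mutant libraries lay at 30.1 to 51.6 and wild-type replicates 1 to 3 at -18.1, -40.5 and -55.6. Wild-type replicate 1 was the wild-type library nearest to the mutant mean on that component and for Gne, Nans, Slc35a1, Casd1, C1galt1, B4galt1 and Galt, but not for Alg2 or Galnt12. Among the mutants, replicate 3 was the lowest for Casd1, Alg2, Galt and Galnt12 and replicate 2 for Gne, Nans, Slc35a1 and B4galt1. Neither Nans nor C1galt1 kept its call in every fit that left 1 library out.

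**Figure D3:**
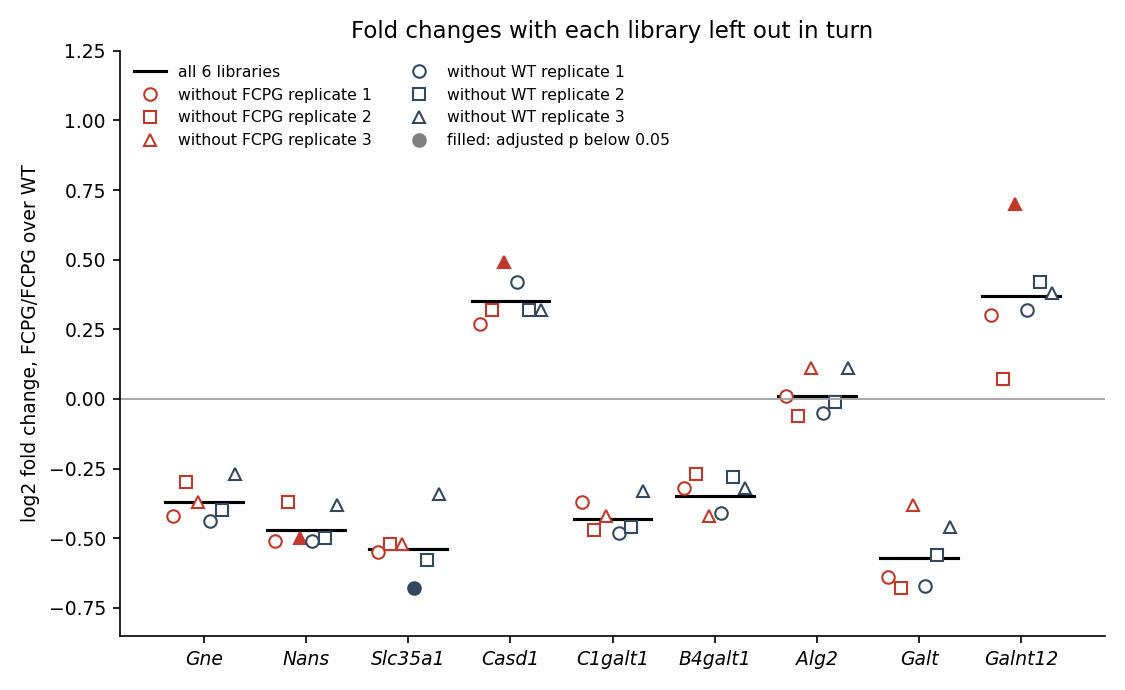
Log2 fold change (FCPG/FCPG over WT) of each gene with all 6 libraries (black line) and without 1 library at a time, red for a mutant and dark blue for a wild-type library left out, filled where the adjusted p was below 0.05. Only Nans, Slc35a1, Casd1 and Galnt12 have a filled point, 1 each, and all points of 8 genes stay on 1 side of 0, the exception being Alg2.

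The genes beside the 9 were compared in the same fit. C1galt1 lies between Asns, the asparagine synthetase, whose log2 fold change was 0.65 ± 0.19 (SE, adjusted p = 0.0727, edgeR), and, past the nearly silent Col28a1, Mios, a component of the amino acid sensing complex upstream of mTOR. Mios had 135, 157 and 135 CPM in the mutant libraries and 103, 96.2 and 92.4 CPM in the wild-type libraries, and rose by 0.55 ± 0.10 on the log2 scale (SE, adjusted p = 0.0149, edgeR). Beside Gne lies Clta, at 0.25, and beside Slc35a1 lies Rars2, at 0.13 on the log2 scale, neither past the threshold. Other neighbours had negative estimates: Dnaja1 (-0.27) and Bag1 (-0.21) near B4galt1, Sec61b (-0.29) beside Alg2 and Anks6 (-0.36) beside Galnt12. So did Cfap206 (-0.57), on the other side of Slc35a1 and at only 3.43 and 5.13 CPM in mutant and wild type, and Coro2a (-0.26) near Nans. Smu1, also beside B4galt1, was at 0.09, and Anp32b, beside Nans, at 0.11. Orc3, near Slc35a1, was at 0.16, and Melk, near Gne, at 0.08. None of these passed the threshold. Hemgn, near Nans, did, at -2.26 (adjusted p = 0.00627, edgeR). Casd1 lies between Col1a2, a chain of type I collagen, and the imprinted genes Sgce and Peg10. All 3 rose, by log2 fold changes of 1.57, 0.87 and 1.59 (adjusted p = 0.0364, 0.00872 and 0.00458, edgeR). Sgce had 202, 156 and 216 CPM in the mutant libraries and 108.5, 103 and 102 CPM in the wild-type libraries. Peg10 had 4549, 4859 and 4458 CPM in the mutant libraries and 1989, 1467 and 1155 CPM in the wild-type libraries. Among the mutants, Casd1 and Peg10 were lowest in replicate 3, Sgce in replicate 2 and Col1a2 in replicate 1. Within wild type, Casd1, Sgce and Peg10 fell from replicate 1 to 3, whereas Col1a2 rose. A shared cause was not tested.

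**Figure D4:**
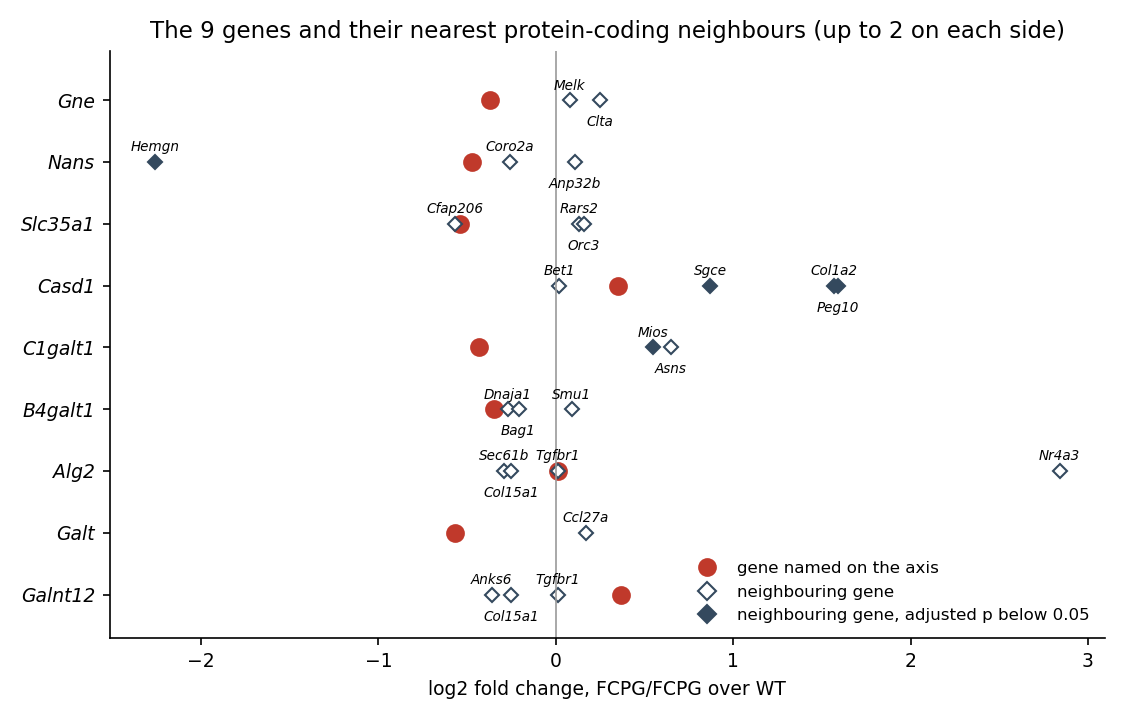
Log2 fold change (FCPG/FCPG over WT) of the 9 genes (red circles) and of up to 2 protein-coding neighbours on each side with a mean of at least 5 CPM in either group (diamonds, filled at an adjusted p below 0.05). Around Casd1 the neighbours Sgce, Col1a2 and Peg10 lie at 0.87 to 1.59, and beside C1galt1, at -0.43, Mios and Asns lie at 0.55 and 0.65. Hemgn near Nans lies at -2.26, and Cfap206 beside Slc35a1 at -0.57.

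Of the 5 readable markers of other cell types, Hemgn and Tspan33 fell, Pou3f2 rose, and Tmod1 and Esrp1 did not pass the threshold. Of 13 erythroid markers 3 were readable, and their summed level was 41.4 to 56.3 CPM in the mutant libraries and 127 to 200 CPM in the wild-type libraries. Hemgn, a nuclear factor of red cell precursors and 2 protein-coding genes from Nans, had 22.5, 15.9 and 10.7 CPM in the mutant libraries and 103, 68.2 and 62.8 CPM in the wild-type libraries. Tmod1, an actin-capping protein of red cells, had 3.66 to 7.77 CPM in the mutant libraries and 6.32 to 16.8 CPM in the wild-type libraries, and its groups overlapped (adjusted p = 0.249, edgeR). Within wild type Hemgn was highest in replicate 1, the library in which Nans and C1galt1 were lowest. Of 7 neural markers only Pou3f2 was readable, at 20.8 to 305.6 CPM in the mutant libraries and 4.23 to 11.7 CPM in the wild-type libraries. Esrp1, a splicing factor of epithelia and 1 of 7 epithelial markers, had 102, 71.5 and 126 CPM in the mutant libraries and 136, 165 and 174 CPM in the wild-type libraries, and did not pass the threshold (adjusted p = 0.073, edgeR). Like Gne, Nans, Slc35a1 and B4galt1, Esrp1 was lowest in mutant replicate 2, and in wild type it was lowest in replicate 1. None of the 5 readable markers was at 0, and no endothelial marker of 6 was readable. The part of these cell types in the differences of the 9 genes was not tested.

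Each gene was also set beside 375 other nuclear genes of the stretches with a mean of at least 5 CPM, by the root mean square difference of centred log2 CPM over the 6 libraries. For Gne the nearest were Glcci1 (0.061) and Nans (0.069), and Gne was in turn the nearest to Nans. Ccnc, which encodes cyclin C, was the nearest gene to both Slc35a1 (0.119) and C1galt1 (0.067). Ccnc was itself lower in the mutant, with a log2 fold change of -0.55 (adjusted p = 0.0249, edgeR). The measure includes the difference between genotypes, so a similar fold change in the nearest genes follows from how they were found. Casd1 was nearest to Tes (0.071), which encodes the focal adhesion protein testin, and Galt to Pon2 (0.08), a paraoxonase. For B4galt1 the nearest was Coro2a (0.088), which encodes an actin-binding coronin, and for Alg2 it was Lyrm2 (0.063). Galnt12 was farther from every gene, with AI464131 at 0.177 and Snhg18 at 0.182. The second nearest were Amd-ps4 for Nans (0.082), Chchd7 for Slc35a1 (0.127), Klhdc10 for Casd1 (0.082), Dcaf10 for C1galt1 (0.1), Glcci1 for B4galt1 (0.094), Bet1 for Alg2 (0.067) and Aass for Galt (0.099). These values are on the log2 scale and describe only 6 libraries.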

How the data were processed

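Polyadenylated RNA of tailbud tissue was sequenced from 3 Fgfr1 FCPG/FCPG and 3 wild-type libraries with a stranded kit (labels' protocols). Per the submitters' processing notes, mm39, Bowtie, featureCounts and both DESeq and DESeq2 were used, in versions not given in the sources used here. Raw counts by Ensembl ID, as deposited, are the input of every test here. The authors also deposited a DESeq2 table that gives, per the file headers, a mean normalized count (signal), the log2 fold change and its SE, the test score and raw and adjusted p-values. Column names hold 10-5, which the labels, at day 9.5, do not explain. The genotype letter and replicate number in a column name gave its sample.

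IDs were cut to 18 characters, which left no duplicates, and 52029 of 56953 matched a symbol. Across most of the genome, names go against the reads. A hidden Markov model over 923 ubiquitous genes (detection at 10 CPM, chance of detection 0.95 or 0.25, chance of a change of state 0.03, runs of at least 6 genes with a posterior above 0.95) found the stretches used here. Gene order and exon length come from GENCODE M21, an older build, so gene coordinates are not given. Libraries were compared with edgeR 4.0.16 in R 4.3.3 (filterByExpr, TMM, quasi-likelihood F test, no covariate). CPM values are TMM-scaled, except those that judge names. The procedure was tested on simulated data. The members and gene lists were chosen with earlier results of these data known. Named genes are the 9 members, every further list gene in the stretches, the 2 nearest in pattern to each member and the flanking genes. Mios, Asns, Sgce, Peg10 and the other neighbours were named by position, and a few neighbours are not reported here. Alternatives were DESeq2 1.42.0, limma-voom (limma 3.58.1), other size factors, filters, a replicate block, a sex term, library sizes without mitochondrially encoded genes, and each library left out. The labels give no batch. Replicate numbers did not pair the samples: deviations from the group means correlated at -0.23, -0.01 and -0.01.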

Additional observations from a re-analysis of the deposited data

How the results depend on the processing

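The number of the 9 genes called lower was 2, against 4 with the DESeq2 Wald test, 5 without a low-count filter, 3 with a filter of 5 CPM in 3 libraries, 1 with the replicate block, 0 with a term for embryo sex, and 0 to 1 with each library left out. The number called higher was 0, against 1 without a low-count filter (Casd1) and 0 to 2 with each library left out. Over all features, 618 were higher and 534 lower. The counts were 941 higher and 767 lower with the DESeq2 Wald test and 1352 and 1145 without a low-count filter. They were 515 and 479 with the 5 CPM filter, 433 and 411 with the replicate block and 273 and 264 with the sex term. With each library left out they were 66 to 783 and 63 to 565, lowest without wild-type replicate 2. Leaving out wild-type replicate 3 gave 163 higher and 151 lower, mutant replicate 1 gave 327 higher and 259 lower, and wild-type replicate 1 gave 408 higher and 415 lower.

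Nans was at -0.42 with the sex term and at -0.51 to -0.37 with each library left out. C1galt1 lost its call with the replicate block (-0.42, adjusted p = 0.0697 by edgeR) and the sex term (-0.42), and ran from -0.48 to -0.33 with each library left out. Same-numbered libraries share only a number, so this block is no evidence of a weaker effect. Slc35a1 passed with the DESeq2 Wald test (-0.53), without a low-count filter (-0.52), and with the 5 CPM filter (-0.57), and ran from -0.68 to -0.34 with each library left out. Galt passed with the DESeq2 Wald test (-0.56) and without a low-count filter (-0.55). Without that filter Casd1 (0.37) and B4galt1 (-0.32) also passed. Casd1 ran from 0.27 to 0.49 and Galnt12 from 0.07 to 0.70 with each library left out. Alg2, with 0.01, changed sign to -0.02 with the 5 CPM filter and ran from -0.06 to 0.11 with each library left out. Manea ran from -0.08 to 0.07 there. Gne passed in none of the 14 alternatives, with adjusted p from 0.0543 to 0.26. Apart from Alg2, each of the 9 genes kept its sign in all 14. DESeq2 size factors, limma-voom and library sizes without mitochondrially encoded genes changed no call among the 9. Fits without a library hold fewer samples. For the other shifts the cause was not tested. Galnt12, with as few as 201 counts in a library, is the least precisely measured.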
